A study of Mus musculus with 64 samples.

Results

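Microglia from the hippocampus in the libraries labelled day were compared between the conditions Soci and Cogn (8 libraries) and the conditions Ctr0 and Ctr1 (8 libraries), with 4 libraries in each condition. The members were chosen by their titles, and they are 16 of the 64 libraries of the series. The series also holds night libraries of the hippocampus and day and night libraries of the frontal cortex, of the same 4 conditions, and these were used only to show where the day hippocampus differed. All animals were young adult male C57BL/6 mice, of the substrain C57BL6/N by the study's methods and without a transgene named in the labels, kept for the microglial isolation under a reversed light-dark cycle, and their microglia were enriched with magnetic beads against CD11b, a surface protein that other myeloid cells also carry. The labels do not give the meaning of the 4 condition names. The study's text sets the microglial sampling at a time in the light and a time in the dark phase, and the labels do not say which of them day is. They also do not say whether the libraries of a condition came from separate animals. The p-values therefore measure only the spread between these libraries, which may be technical in part.

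Microglia are the resident macrophages of the brain parenchyma, and their survival depends on signalling through the receptor Csf1r. They sense corticosterone, the main glucocorticoid of the mouse, through the glucocorticoid receptor, which is encoded by Nr3c1 and binds to response elements in DNA to raise or lower transcription. Because a bead-enriched fraction keeps some vessel cells, blood cells and debris of other brain cells, bulk RNA from it also holds transcripts of those cells, and fewer cells of a type and less RNA per cell cannot be told apart.

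The total count ran from 11.6 to 62.2 M per library, and the Cogn replicate 4 library had the highest total. All 8 microglial markers, Csf1r among them, had reads in every library. The summed CPM of these 8 markers ran from 12401 to 17675 in Soci and Cogn and from 13152 to 17284 in the controls. The locus Gm26917, which takes up ribosomal RNA reads, held between 29.3 and 52.2% of the counts, so levels are given as CPM scaled by TMM, a gene's counts per library after the libraries were brought to a common effective size.

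Across 15811 genes tested, 6 passed an adjusted p of 0.05 in edgeR, which is 0.0379% of the genes, and all 6 were higher in Soci and Cogn. They were Notch4, Map3k6, Mal, Tecrl, Slc2a1 and Parvb. No gene passed in the lower direction, where 455 genes (2.88%) had an unadjusted p under 0.05 against 741 (4.69%) in the higher direction. With DESeq2, 67 genes passed higher and 14 lower. The differences were mostly small: the median over all genes was 0.00 on the log2 scale, and 21 genes differed by more than 1.

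Notch4, a receptor of the Notch family best known from endothelial cells, was the gene with the lowest p-value in edgeR. Its CPM ran from 84.4 to 113 with a median of 101 in Soci and Cogn, and from 44.6 to 84.0 with a median of 59.4 in the controls. Every Soci and Cogn library was thus above every control library. The log2 difference was 0.72 ± 0.09 (SE), with an adjusted p of 0.00608. In this direction 4 genes did not overlap, which is 0.0253% of the genes tested: Notch4, Pitpnc1, the proteasome activator gene Psme2b and Pnn, which encodes pinin. The gene lies on chromosome 17, from 34564268 to 34588503 on the plus strand of GRCm38.

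Map3k6, a kinase that acts with its relative Ask1 in stress signalling, had 9.13 to 16.1 CPM (median 10.9) in Soci and Cogn and 3.07 to 10.4 CPM (median 5.20) in the controls. The groups overlapped through the Ctr0 replicate 3 library, whose 10.4 CPM lay above 3 of the 8 Soci and Cogn libraries. The log2 difference was 1.14 ± 0.15 (SE), with an adjusted p of 0.00667. Map3k6 lies on chromosome 4, from 133240818 to 133252929 on the plus strand.

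Slc2a1 encodes the glucose transporter GLUT1, which is abundant in the endothelium of the blood-brain barrier and is also made in other brain cells. It was the most abundant of the 6 genes, with 205 to 384 CPM (median 268) in Soci and Cogn and 89.3 to 248 CPM (median 146) in the controls. The 248 CPM again belonged to the Ctr0 replicate 3 library, and the other 7 controls lay below all Soci and Cogn libraries. The log2 difference was 0.86 ± 0.14 (SE), with an adjusted p of 0.0489. Slc2a1 lies on chromosome 4, from 119108711 to 119137983 on the plus strand.

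Mal, a membrane protein of myelin and of apical transport, had 19.2 to 36.6 CPM (median 24.02) in Soci and Cogn and 10.2 to 24.1 CPM (median 14.0) in the controls, and its log2 difference was 0.83 ± 0.13 (SE), with an adjusted p of 0.0393. Parvb encodes beta-parvin, an adaptor between integrins and actin, and had 26.4 to 39.2 CPM (median 33.3) against 19.1 to 28.9 CPM (median 23.3), with a log2 difference of 0.51 ± 0.09 (SE) and an adjusted p of 0.0489. For both genes the highest control was the Ctr0 replicate 3 library, at 24.1 CPM of Mal and 28.9 CPM of Parvb. Mal lies on chromosome 2 (127633226 to 127656695, minus strand) and Parvb on chromosome 15 (84232043 to 84315688, plus strand).

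Tecrl, a relative of trans-2-enoyl-CoA reductase best known from heart muscle, also passed but was scarce. It had 0.622 to 1.55 CPM (median 1.16) in Soci and Cogn and 0.109 to 0.828 CPM (median 0.345) in the controls. Its log2 difference of 1.62 ± 0.26 (SE), with an adjusted p of 0.0415, rested on a mean of 17.1 counts per library, and a pseudogene, Gm15626, overlaps it. Tecrl was below the level set for named genes and was added after its values were seen.

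**Figure D1:**
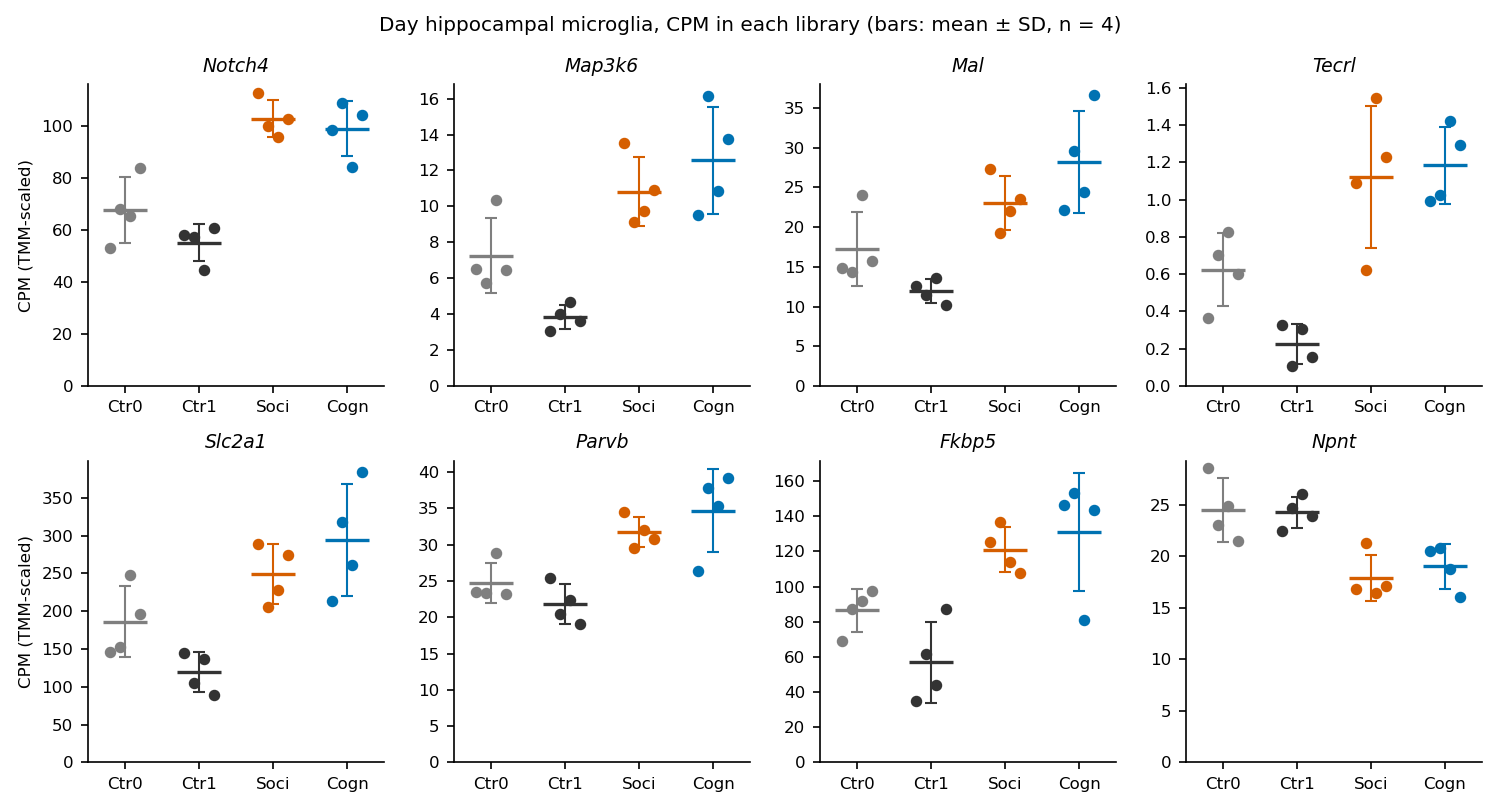
CPM (TMM-scaled, vertical axes from 0) of the 6 genes that passed, of Fkbp5 and of Npnt in each day hippocampus library, by condition; points are libraries, and lines and whiskers are mean and SD of 4 libraries. Notch4 does not overlap between Soci or Cogn (84.4 to 113 CPM) and the controls (44.6 to 84.0 CPM), Npnt does not overlap in the other direction, and the Ctr1 mean is the lowest of the 4 for the other 7 genes.

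Because glucocorticoid-responsive genes were among the leading genes, the promoters of the leading genes were searched for letters of the glucocorticoid response element. The sequences came from RefSeq (GRCm38.p6) and cover 250 bases before the start of transcription and 50 after it. The letters were the full element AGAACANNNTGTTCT, its half-site TGTTCT on either strand, and its core ACANNNTGT, which reads the same on both strands. The full element contains the other motifs. Of all 32851 promoters, 0.00913% held the full element, 19.0% the half-site and 6.85% the core. All 6 genes that passed had an entry, none of them held the full element, 2 held the core and 1 the half-site. The 3 promoters that held a match are shown 5′ to 3′ on the strand of the gene, with the match in capitals.
Notch4: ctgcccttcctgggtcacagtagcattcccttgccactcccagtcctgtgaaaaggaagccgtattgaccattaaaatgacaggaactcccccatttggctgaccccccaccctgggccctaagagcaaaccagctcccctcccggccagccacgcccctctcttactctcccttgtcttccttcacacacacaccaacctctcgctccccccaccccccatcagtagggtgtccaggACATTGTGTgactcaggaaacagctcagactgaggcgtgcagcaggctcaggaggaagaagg
Map3k6: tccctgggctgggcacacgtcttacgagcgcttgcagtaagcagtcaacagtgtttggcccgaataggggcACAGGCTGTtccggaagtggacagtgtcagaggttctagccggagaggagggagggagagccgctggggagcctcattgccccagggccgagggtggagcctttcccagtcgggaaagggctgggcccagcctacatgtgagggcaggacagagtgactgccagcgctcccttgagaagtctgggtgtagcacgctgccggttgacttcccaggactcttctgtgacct
Tecrl: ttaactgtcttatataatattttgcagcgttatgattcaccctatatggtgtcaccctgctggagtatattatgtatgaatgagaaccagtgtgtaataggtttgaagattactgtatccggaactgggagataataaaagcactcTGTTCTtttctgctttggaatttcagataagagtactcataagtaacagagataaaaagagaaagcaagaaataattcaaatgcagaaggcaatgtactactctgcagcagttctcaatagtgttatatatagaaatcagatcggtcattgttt
The Notch4 window is chr17:34564045-34564344 (plus strand), with its core starting 12 bases before the start. The Map3k6 window is chr4:133240568-133240867 (plus strand), with its core starting 179 bases before it. The Tecrl window is chr5:83355146-83355445 (minus strand), with its half-site starting 104 bases before it. The promoters of Mal, Slc2a1 and Parvb held none of these letters. Of the 13 leading higher genes, Tecrl included, 11 had an entry. Of those 11, 5 (Notch4, Map3k6, Tecrl, Pitpnc1 and Fam107a) held a core or a half-site in at least 1 promoter. The glucocorticoid-responsive genes Fkbp5 and Cdkn1a held neither in any of their promoters. The share of all genes with a core or a half-site in at least 1 promoter was not computed. The shares given above are per promoter and for 1 motif each. The 5 of 11 therefore has no background here and cannot be read as more than other genes hold. A match describes letters in this window and is not a measured binding site. A promoter without a match says nothing about elements outside the window.

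The other leading higher genes, taken by lowest p-value, did not pass. Pitpnc1, a phosphatidylinositol transfer protein, came closest, with a log2 difference of 0.26 ± 0.05 (SE) and an adjusted p of 0.0564. Its CPM ran from 81.2 to 94.5 in Soci and Cogn and from 65.4 to 79.7 in the controls, so it was small in size but without overlap. Trpv4, a cation channel opened by warmth and osmotic swelling, had a log2 difference of 0.54 ± 0.10 (SE) and an adjusted p of 0.0712. Xdh, which makes uric acid, had 0.88 ± 0.16 (SE) and an adjusted p of 0.0770, and Plat, the tissue plasminogen activator, 0.87 ± 0.17 (SE) and an adjusted p of 0.108.

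Among the remaining leading genes were targets of glucocorticoids. Fkbp5, a co-chaperone that lowers the sensitivity of the glucocorticoid receptor, had 81.0 to 153 CPM (median 131) in Soci and Cogn and 34.8 to 97.3 CPM (median 78.1) in the controls. The groups overlapped through the Cogn replicate 3 library (81.0 CPM), and the other 7 lay above all controls. The log2 difference was 0.85 ± 0.17 (SE), with an adjusted p of 0.115. Fam107a, an actin-binding protein induced by stress hormones, had 0.68 ± 0.12 (SE) and an adjusted p of 0.0770, and Cdkn1a, the cell cycle inhibitor p21, had 0.71 ± 0.13 (SE) and an adjusted p of 0.0903.

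The list of glucocorticoid-responsive genes had 19 genes tested. None passed the adjusted threshold, where 0.0379% of all genes did, while 10 were higher and 1 lower at an unadjusted p under 0.05. These are 52.6% of the list in the higher direction, against 4.69% of all genes, and the median log2 difference of the list was 0.32 against 0.00 over all genes. The list was chosen with earlier results of these data known, so these shares describe it and are not an independent test. Besides Fkbp5, Fam107a and Cdkn1a, the higher genes were Zbtb16 (0.88 ± 0.22 SE), a zinc finger factor, Tsc22d3 (0.50 ± 0.17 SE), which encodes the anti-inflammatory protein GILZ, the metallothioneins Mt1 (0.43 ± 0.17 SE) and Mt2 (0.53 ± 0.22 SE), Nfkbia (0.32 ± 0.14 SE), the inhibitor of NF-kappaB, the phosphatase Dusp1 (0.50 ± 0.22 SE) and Ddit4 (0.73 ± 0.33 SE), an inhibitor of mTOR signalling. The lower gene was Nr3c2, the mineralocorticoid receptor, at -0.29 ± 0.13 (SE). Nr3c1 itself had 179 CPM in Soci and Cogn and 189 in the controls, a log2 difference of -0.07 ± 0.06 (SE) with an unadjusted p of 0.221 in edgeR. Sgk1, the most abundant of the list, had 0.09 ± 0.10 (SE). The count of 10 was 4 to 11 when a replicate number was left out, 5 without Soci replicate 1 and 6 without Ctr0 replicate 1. It was 6 with the haemoglobin score and 6 with the endothelial and mural score that are described with the markers of other cells, with medians of 0.32 and 0.35. Against Ctr0 alone it was 5 with a median of 0.14, and against Ctr1 alone 10 with a median of 0.45.

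**Figure D2:**
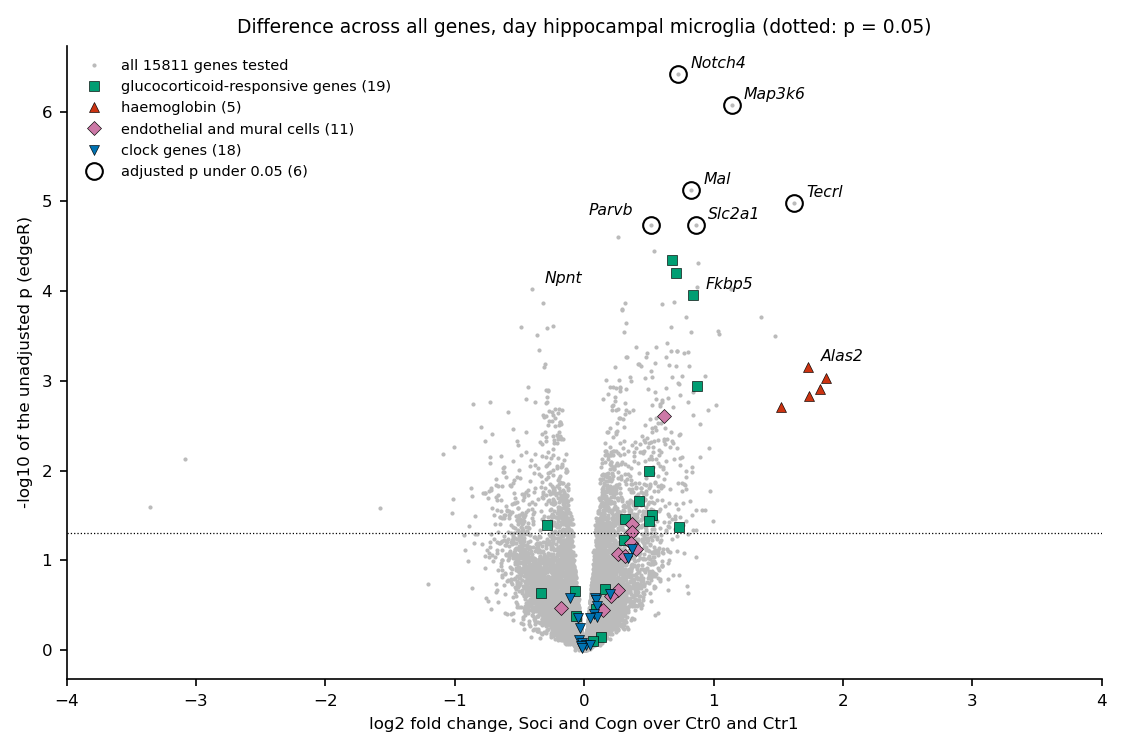
Log2 fold change of Soci and Cogn over Ctr0 and Ctr1 (horizontal) against the -log10 of the unadjusted edgeR p (vertical) for the 15811 genes tested, with 4 lists marked and the 6 genes that passed circled. The 5 genes of the haemoglobin list lie furthest right among the marked genes, 10 of the 19 glucocorticoid-responsive genes lie above the dotted line on the right, and all 18 clock genes lie below it.

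In the lower direction no gene passed, and the 12 leading genes had small differences, from -0.40 to -0.24 on the log2 scale. Npnt, which encodes nephronectin, an integrin ligand of the extracellular matrix, had the lowest p-value. It had 16.1 to 21.3 CPM (median 18.0) in Soci and Cogn and 21.5 to 28.6 CPM (median 24.3) in the controls, so the groups did not overlap. Its log2 difference was -0.40 ± 0.08 (SE), with an adjusted p of 0.108, and it was 1 of 2 genes (0.0126%) with all 8 Soci and Cogn libraries below all 8 controls, beside St8sia1, a sialyltransferase. Tanc2, a scaffold protein of synapses, had 444 to 528 CPM (median 480) against 523 to 698 CPM (median 622), with a difference of -0.32 ± 0.06 (SE) and an adjusted p of 0.115.

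The other lower leading genes included genes of microglial signalling. Smad3, which carries the TGF-beta signal that microglia need, had 84.2 to 96.4 CPM (median 86.8) against 92.6 to 114 CPM (median 104), a difference of -0.24 ± 0.05 (SE) with an adjusted p of 0.145. Nrp1, a co-receptor of semaphorins and VEGF, had -0.28 ± 0.07 (SE) with an adjusted p of 0.235. In both genes the groups overlapped by a few libraries. Ppp2r1b, Usp35, Fmn1, Trp53i11, Cyb561a3, Gpr160 and Slc16a10 were also among the 12, with log2 differences between -0.36 and -0.28, and the Ppp2r1b count is uncertain because Sik2 overlaps it.

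The identity genes of microglia differed little. Among 20 homeostatic genes tested none passed, 2 were lower, where 2.88% of all genes were, and 0 higher at an unadjusted p under 0.05, and the median was -0.06. The lower genes were Mef2c, a transcription factor, at -0.13 ± 0.05 (SE), and P2ry13, a purine receptor, at -0.24 ± 0.09 (SE) and overlapped by Med12l, while Csf1r had -0.03 ± 0.09 (SE). Among 21 disease-associated genes only Clec7a had an unadjusted p under 0.05, at -0.44 ± 0.16 (SE). Among 15 cytokines and chemokines tested only Il1a did, at -0.23 ± 0.10 (SE), and the 22 interferon-stimulated genes had 0, with a median of 0.16. The lysosomal list (26 genes) also had 0. In cholesterol handling (21 genes) 18 were lower in sign, with a median of -0.07. Only Abcg1, an exporter of cholesterol, had an unadjusted p under 0.05, at -0.18 ± 0.08 (SE).

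Stress and activity lists held some genes at an unadjusted p under 0.05, the level at which 4.69% of all genes were higher, and none of these passed. Of 23 immediate early genes, 4 were higher at that level: Fosl2 (0.24 ± 0.06 SE), Klf2 (0.50 ± 0.15 SE), Klf4 (0.41 ± 0.16 SE) and Dusp1, which is also in the glucocorticoid list. Fos was at -0.40 ± 0.30 (SE) and Jun at 0.05 ± 0.08 (SE). Of 18 heat shock and cold-inducible genes, 5 were higher at that level, led by the chaperone partner Dnaja1 (0.28 ± 0.07 SE), whose count is uncertain because Smu1 overlaps it, and the median was 0.14. Among 19 glycolysis genes Slc2a1 passed, Slc2a3, the transporter GLUT3, had 0.49 ± 0.13 (SE) with an unadjusted p of 0.00124, and the median of the list was -0.02.

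**Figure D3:**
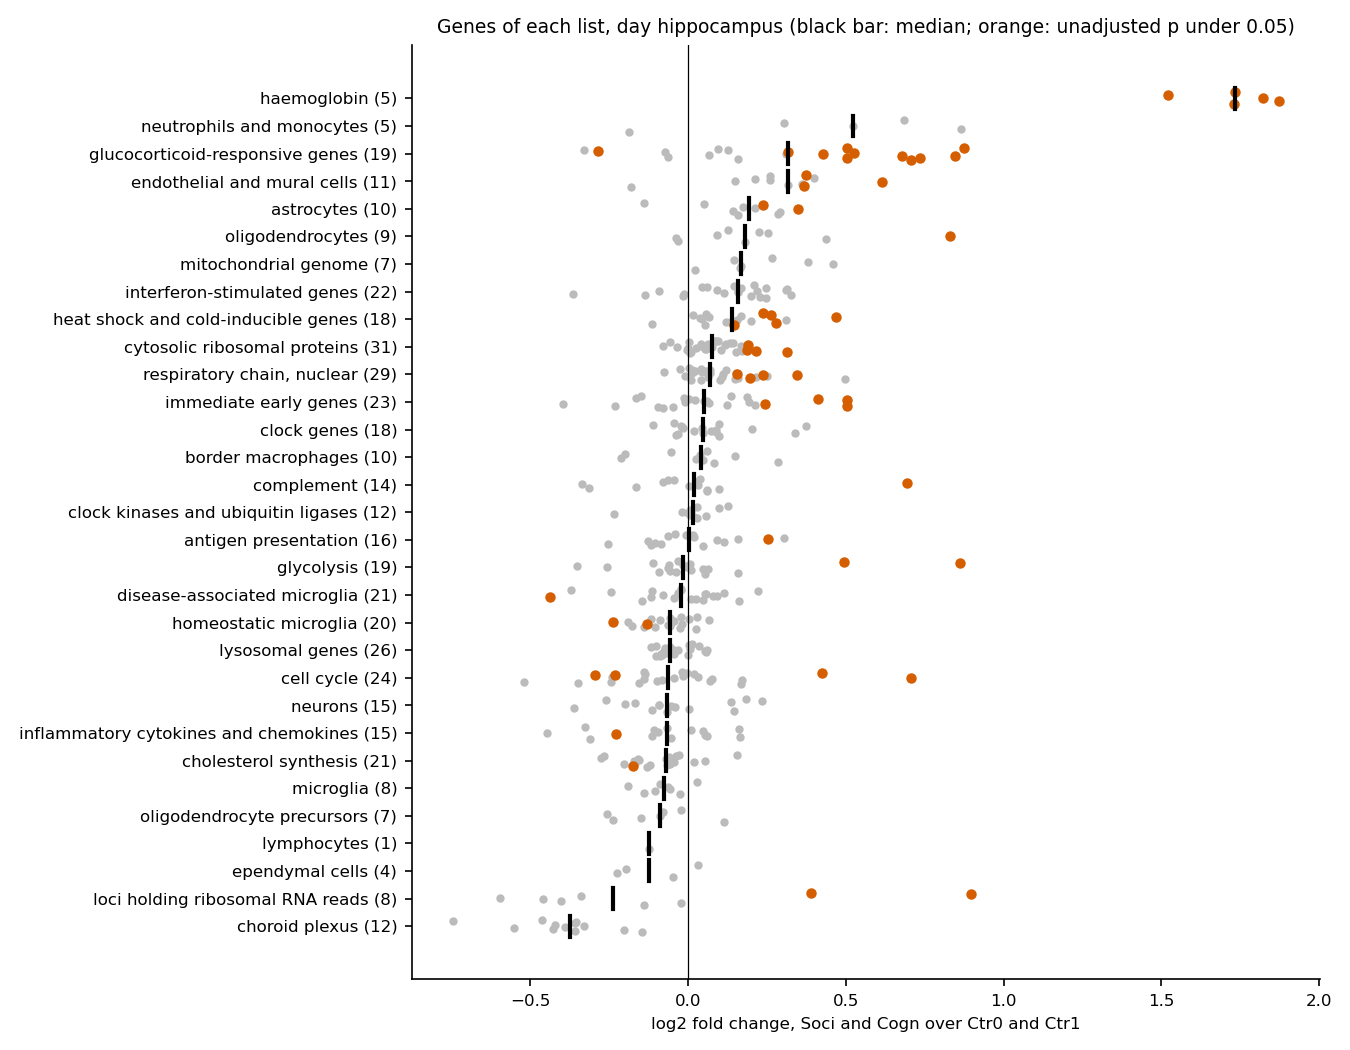
Log2 fold change of Soci and Cogn over Ctr0 and Ctr1 of every gene tested in each list, with the number tested in parentheses; black bars are medians and orange points have an unadjusted edgeR p under 0.05. The haemoglobin list has the highest median (1.73) and the choroid plexus list the lowest (-0.38), and most lists of microglial function are centred near 0.

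Markers of other cells were examined in the same contrast. The haemoglobin list, which marks red blood cells, holds globin genes and Alas2, a gene of haem synthesis. The Alas2 count is uncertain because Apex2 overlaps it. By the study's methods the animals were perfused with buffered saline before the brain was removed. The 5 genes of the list were each higher at an unadjusted p under 0.05, where 4.69% of all genes were. The median log2 difference was 1.73, though none of the 5 passed. Their summed CPM was 17.6, 38.8, 68.9 and 188 in Soci, 62.8, 77.6, 105 and 111 in Cogn, 11.5, 12.6, 33.6 and 46.5 in Ctr0, and 8.25, 20.7, 30.8 and 42.7 in Ctr1. Of the 8 Soci and Cogn libraries, 6 were above all controls. The means were 83.8 ± 52.3 and 25.8 ± 14.7 (SD, n = 8 each), and a 2-sided exact permutation test gave p = 0.00342, or 0.0513 after adjustment over the 15 single values tested. All 5 genes had reads in every library.

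The endothelial and mural list had 11 of its 12 genes tested, of which 10 were higher in sign, 3 at an unadjusted p under 0.05 (Ly6c1, Vtn and Cdh5), where 4.69% of all genes were, and the median was 0.32. None passed. The count of 3 depended on the libraries: it was 1 to 7 without a library, with 7 without Ctr0 replicate 3 or Ctr1 replicate 1, 0 (median 0.11) against Ctr0 alone and 7 (median 0.53) against Ctr1 alone. Its summed CPM ran from 505 to 843 in Soci and Cogn and from 280 to 909 in the controls (exact permutation p = 0.0918, adjusted p = 0.456). The 909 CPM belonged to the Ctr0 replicate 3 library, the control that was highest for Map3k6, Mal, Slc2a1 and Parvb. That library also had the highest choroid plexus sum, at 866 CPM. Its neutrophil and monocyte sum, 33.6 CPM, was the highest together with that of Soci replicate 4. Whether any of these sums goes with its high values of the 4 genes was not tested. Ly6c1, a surface protein of brain endothelium, had 0.62 ± 0.17 (SE), and Cldn5, the tight junction protein of the barrier, had 66.0 against 53.2 CPM, a log2 difference of 0.32 ± 0.17 (SE).

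The leading genes were recomputed with a score of these markers in the model, which was chosen after the data were seen. With the endothelial and mural score, 5 genes passed, and Notch4 had a log2 difference of 0.76 (adjusted p = 0.0337), Map3k6 0.98 (0.0425), Mal 0.64 (0.0443), Slc2a1 0.63 (0.0443) and Fkbp5 1.06 (0.0425). With the haemoglobin score no gene passed in edgeR and 501 had an unadjusted p under 0.05, against 1196 without it. Notch4 then had a log2 difference of 0.83 (adjusted p = 0.1002), Map3k6 0.98 (0.514) and Fkbp5 1.02 (0.760). Since that score itself differed between the groups, the part of red blood cells and the part of the condition cannot be told apart in that model.

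Astrocyte, oligodendrocyte and choroid plexus markers were examined in the same way. The 10 astrocyte markers tested had a median of 0.19, with Slc1a3, a glutamate transporter, at 0.24 ± 0.06 (SE, adjusted p = 0.187), and the summed CPM was 422 ± 52.4 against 371 ± 43.9 (SD, n = 8 each, exact permutation p = 0.0522, adjusted p = 0.392). Of the 9 oligodendrocyte markers tested, Mal passed, and Mobp (0.25 ± 0.15 SE) and Mbp (0.09 ± 0.11 SE), the classical myelin genes, did not. Of these 9, 7 were higher in sign, with a median of 0.18. Their summed CPM was 173 ± 24.7 against 152 ± 25.9 (SD, n = 8 each, exact permutation p = 0.122, adjusted p = 0.456). All 12 choroid plexus genes were lower in sign, with a median of -0.38 and none at an unadjusted p under 0.05, and their summed CPM ran from 15.3 to 629 in Soci and Cogn and from 1.75 to 866 in the controls. In these lists no marker was at 0 in all 16 libraries, and their part in the differences of other genes was not tested beyond the models with a score given above.

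**Figure D4:**
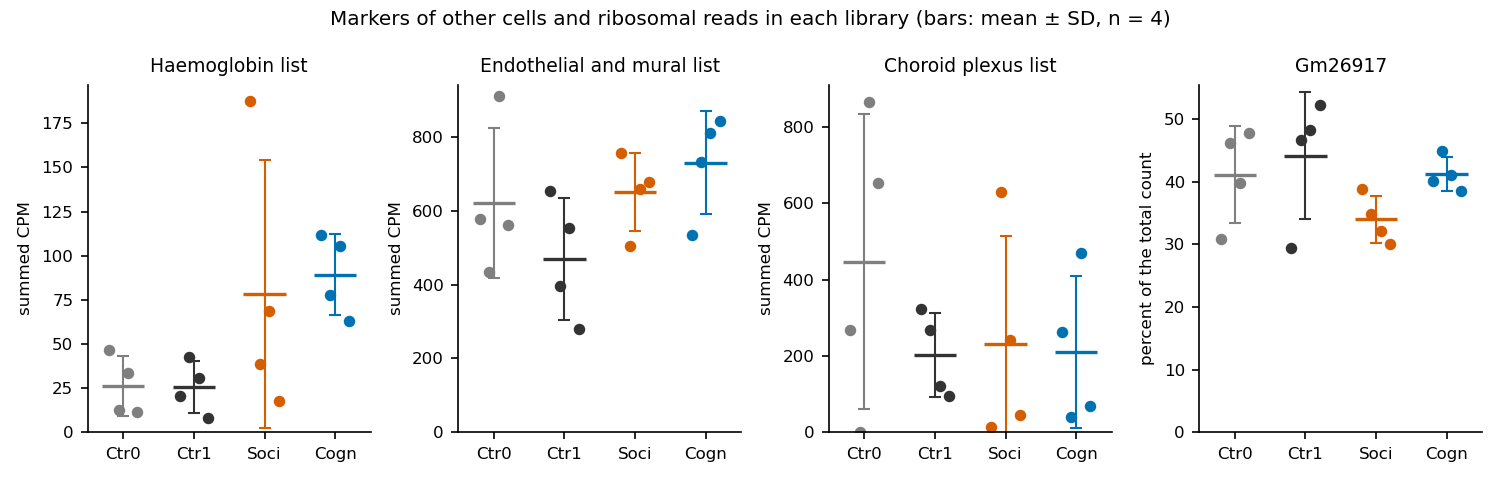
Summed CPM of the haemoglobin, endothelial and mural, and choroid plexus lists, and the percent of the total count in Gm26917, in each day hippocampus library by condition; points are libraries, lines and whiskers are mean and SD of 4 libraries, and whiskers that would pass below 0 end at the axis. Haemoglobin is above all controls in 6 of 8 Soci and Cogn libraries, while the other 3 measures overlap.

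Soci and Cogn were then taken apart, each with 4 libraries against the same 8 controls. Soci against the controls had 1 gene past the threshold (0.00632%), Notch4, and Cogn had 3 (0.0190%), Map3k6, Notch4 and Mal, all higher. Notch4 had 103 ± 7.13 CPM in Soci, 99.1 ± 10.7 in Cogn, 67.7 ± 12.7 in Ctr0 and 55.2 ± 7.23 in Ctr1 (SD, n = 4 each). The log2 difference was 0.75 ± 0.11 (SE, adjusted p = 0.0356) in Soci and 0.70 ± 0.11 (SE, adjusted p = 0.0373) in Cogn. Map3k6 had 10.8 ± 1.94 CPM in Soci, 12.6 ± 2.96 in Cogn, 7.26 ± 2.09 in Ctr0 and 3.84 ± 0.667 in Ctr1, with log2 differences of 1.03 ± 0.17 (adjusted p = 0.165) and 1.25 ± 0.17 (adjusted p = 0.0284).

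Mal had 23.1 ± 3.38 CPM in Soci, 28.2 ± 6.41 in Cogn, 17.2 ± 4.60 in Ctr0 and 11.97 ± 1.49 in Ctr1. Slc2a1 had 249 ± 39.4, 294 ± 73.6, 186 ± 47.0 and 119 ± 26.3 CPM in the same order, and Fkbp5 121 ± 12.8, 131 ± 33.7, 86.5 ± 12.2 and 56.9 ± 23.05 CPM. Among the lower genes, Npnt had 17.9 ± 2.25, 19.0 ± 2.19, 24.5 ± 3.07 and 24.3 ± 1.51 CPM. The rule also named genes of each condition alone, of which 2 were not already among the leading genes. Synj2, a phosphoinositide phosphatase whose count is uncertain because Serac1 overlaps it, was at -0.43 ± 0.11 (SE, adjusted p = 0.658) in Soci, and Ipcef1, an adaptor of cytohesins, at -0.50 ± 0.11 (SE, adjusted p = 0.219) in Cogn.

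The direct test of Soci against Cogn found 0 genes in edgeR and 0 in DESeq2, with 744 genes at an unadjusted p under 0.05. The leading genes were Synj2 (Soci 9.02, Cogn 12.6 CPM, log2 difference -0.48 ± 0.13 SE), Dclre1b, a nuclease of telomeres (16.8 and 13.3 CPM, 0.34 ± 0.10 SE), and Cnot4, a ubiquitin ligase (41.9 and 35.5 CPM, 0.24 ± 0.07 SE), each with an adjusted p of 0.744. None of the 24 leading genes of the main comparison had an unadjusted p under 0.05 between Soci and Cogn, where 2.05% of all genes were higher and 2.66% lower at that level, and the largest size of a log2 difference among the 24 was 0.30. A difference between these conditions was thus not detectable with 4 libraries each, which does not show that they were alike.

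The 2 control conditions were compared in the same way. Ctr1 against Ctr0 had 0 genes past the threshold in edgeR and in DESeq2, with 961 at an unadjusted p under 0.05. Yet all 12 leading higher genes were lower in Ctr1 than in Ctr0, with log2 differences from -0.92 to -0.07, and 10 of the 12 had an unadjusted p under 0.05. Of all genes, 3% were lower and 3.07% higher in Ctr1 at that level. Map3k6 was the gene with the lowest p-value between the controls, at -0.92 ± 0.22 (SE, adjusted p = 0.736), followed by Tbkbp1, an adaptor of the kinase Tbk1 (0.41 ± 0.10 SE), and Scp2, a sterol carrier (-0.33 ± 0.09 SE). Against Ctr0 alone no gene passed and 614 had an unadjusted p under 0.05, and Notch4 was at 0.58, Map3k6 at 0.68, Slc2a1 at 0.54 and Fkbp5 at 0.54. Against Ctr1 alone 15 genes passed, all higher, and the same 4 genes were at 0.87, 1.601, 1.18 and 1.15. The leading lower genes showed no such order, with 6 of 12 lower and 6 of 12 higher in Ctr1.

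**Figure D5:**
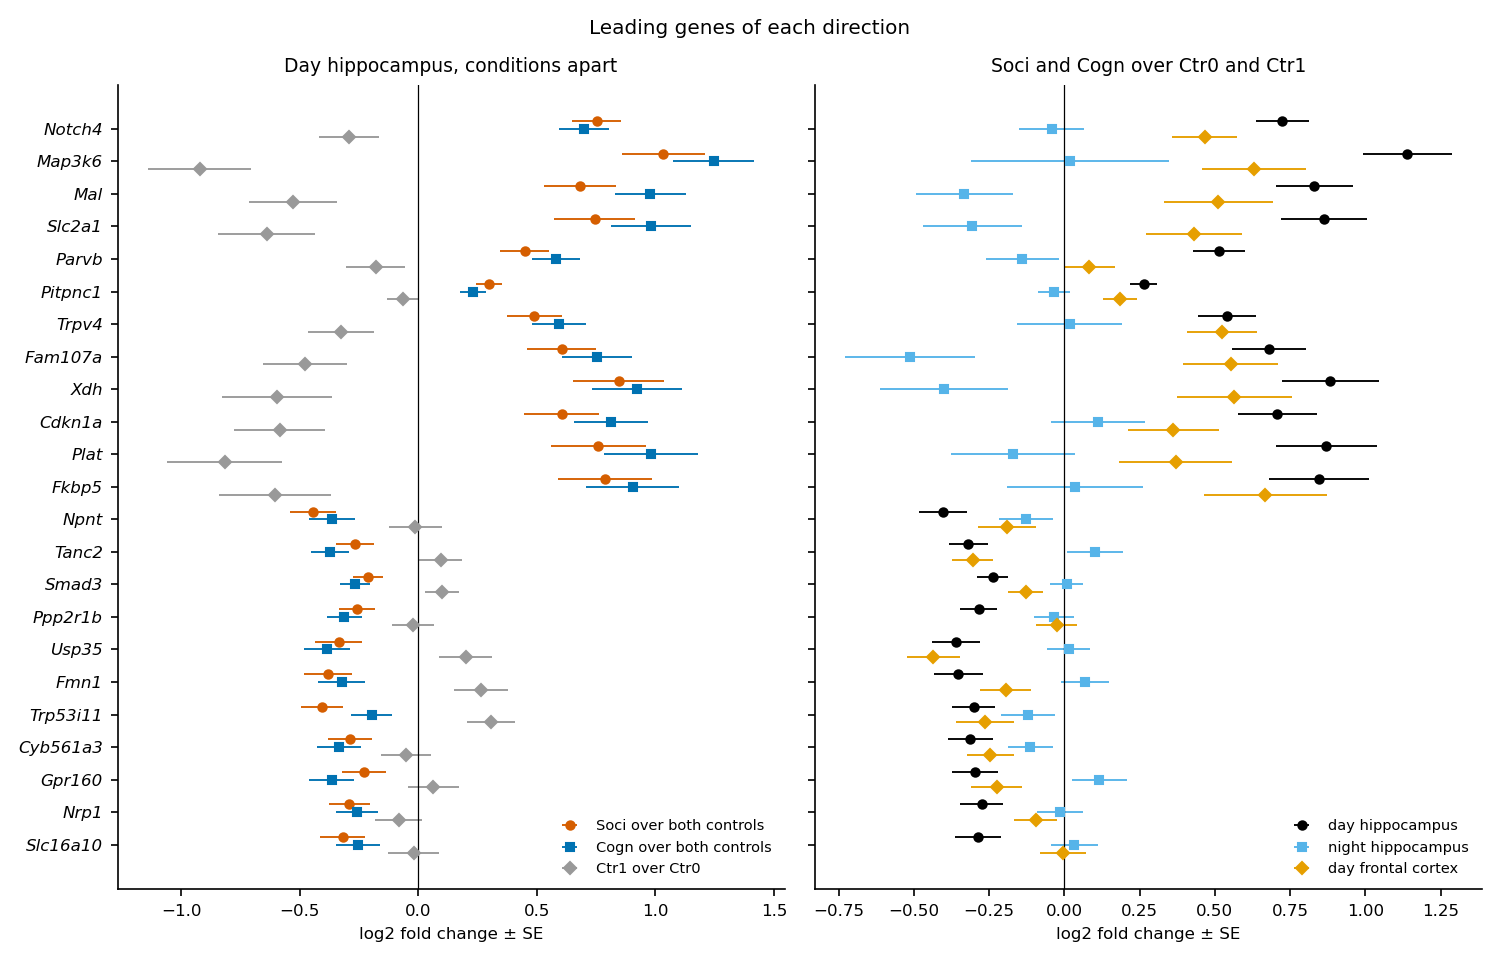
Log2 fold change with SE of the 12 leading higher genes and 11 of the 12 leading lower genes; the left panel shows Soci and Cogn each over the same controls and Ctr1 over Ctr0 in the day hippocampus, the right panel Soci and Cogn over Ctr0 and Ctr1 in the day hippocampus, the night hippocampus and the day frontal cortex. All 12 higher genes lie below 0 for Ctr1 over Ctr0, and all genes shown have the sign of the day hippocampus in the day frontal cortex.

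In the night hippocampus the same contrast was taken over 8 against 8 other libraries. Of the 12 leading higher genes, 4 had the same sign at night and 0 had it with an unadjusted p under 0.05, where 4.52% of all genes were higher and 4.14% lower at that level. Their median log2 difference was -0.09, against 0.78 in the day. Notch4 was at -0.04 ± 0.11 (SE) at night, Slc2a1 at -0.31 ± 0.16, Map3k6 at 0.02 ± 0.33 and Fkbp5 at 0.03 ± 0.23. The test of the day difference against the night difference passed for none of the 24 leading genes. It came closest for Mal, Slc2a1 and Notch4, each with an adjusted p of 0.0811, where the gap was 1.15 ± 0.23, 1.16 ± 0.23 and 0.76 ± 0.15 (SE), and these genes had been named for their day values. The haemoglobin list had a median of 1.73 in the day and -0.64 at night, and the endothelial and mural list 0.32 and -0.29.

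Of all 16826 genes tested for this gap, 1 passed (0.00594%). It was Dbp, a transcription factor driven directly by the circadian clock, with a gap of 1.04 ± 0.17 (SE, adjusted p = 0.0192). In the day Dbp had 7.91 to 12.4 CPM in Soci and Cogn and 6.86 to 11.7 CPM in the controls, a log2 difference of 0.02 ± 0.11 (SE), whereas at night the difference was -1.03 ± 0.12 (SE, adjusted p = 3.22e-05). The count of Dbp is uncertain to the extent that Sphk2 overlaps it. Hlf and Nr1d2, also clock output and clock genes, followed with gaps of 0.77 ± 0.15 and 0.59 ± 0.12 (SE), each with an adjusted p of 0.0811.

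Within the day itself none of the 18 clock genes tested had an unadjusted p under 0.05. Their log2 differences ran from -0.11 for Per3 to 0.37 for Per1, with a median of 0.05, against a median of -0.31 at night. Per1, which is induced both by the clock and by glucocorticoids, had 37.4 to 70.7 CPM (median 56.4) in Soci and Cogn and 22.2 to 75.8 CPM (median 42.1) in the controls, so the groups overlapped widely. Arntl, the core activator, was at 0.10 ± 0.10 (SE), Nr1d1, a repressor that overlaps Thra, at -0.02 ± 0.21 and Per2 at -0.02 ± 0.17. Clock, Npas2, Cry1, Cry2, Rora, Nfil3, Tef, Bhlhe40, Bhlhe41, Ciart, Hlf and Nr1d2 lay between -0.04 and 0.34.

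In the day frontal cortex the contrast had 0 genes past the threshold of 16103 in edgeR, with 1360 at an unadjusted p under 0.05. All 12 leading higher genes of the day hippocampus had the same sign there and 10 had an unadjusted p under 0.05, where 5.28% of all genes were higher at that level. Notch4 was at 0.47 ± 0.11 (SE, adjusted p = 0.211), Trpv4 at 0.52 ± 0.12, Map3k6 at 0.63 ± 0.17, Fkbp5 at 0.67 ± 0.20 and Zbtb16 at 0.85. Among the 12 lower genes all had the same sign and 7 had an unadjusted p under 0.05, where 3.16% of all genes were lower at that level, with Usp35, a ubiquitin protease, at -0.44 ± 0.09 (SE) and Tanc2 at -0.31 ± 0.07. The labels do not say whether the cortical and hippocampal libraries came from the same animals. The endothelial and mural list was at a median of -0.02 in the cortex and the haemoglobin list at 0.81.

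The test of the hippocampal against the cortical difference found 0 genes in edgeR and in DESeq2, with 741 at an unadjusted p under 0.05. Its leading genes were Hnrnpm, an RNA-binding protein overlapped by another gene (hippocampus 0.22, cortex -0.09), Parvb (0.51 and 0.08) and Mphosph8, a reader of silent chromatin overlapped by Gm16973 (0.18 and -0.17), each with an adjusted p of 0.924. Among the 12 higher genes, Map3k6 and Parvb were the 2 with an unadjusted p under 0.05 in this test, where 2.12% of all genes were above 0 and 2.48% below it at that level.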

How the data were processed

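Microglial total RNA was depleted of ribosomal RNA and sequenced from 64 libraries, of which the 16 day hippocampus libraries are described here. Per the submitters' processing notes the authors mapped reads with STAR 2.7.3a to GRCm38.p5 and assigned them to genes with featureCounts of Subread 2.0.0, and they deposited raw counts per gene, with no normalization. The strand setting is not given in the sources used here, so counts of genes that overlap another are uncertain. Overlap was searched for the genes named by the rule and for Tecrl, and partners with few counts beside the gene were left out. Those found among genes named here are Ppp2r1b, Cyb561a3, Synj2, Dbp, Hnrnpm, Mphosph8, Tecrl, Nr1d1, Per3, Clock, Ciart, Dnaja1, P2ry13, H2-Q4 and Alas2. Psme2b, Pnn, St8sia1 and the further list members named outside the rule were not checked for overlap. Of 49671 genes, 49326 matched a symbol and coordinates in GENCODE M21.

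Counts were fitted with the quasi-likelihood test of edgeR 4.0.16 in R 4.3.3, with a mean for each of the 4 conditions, TMM scaling, filterByExpr and Benjamini-Hochberg adjustment over all genes tested. The main contrast was the mean of Soci and Cogn against the mean of Ctr0 and Ctr1 (12 residual degrees of freedom). The night contrast was fitted with all 32 hippocampus libraries and the cortical contrast with all 32 day libraries. DESeq2 1.42.0 was an alternative. The SE is the size of the log2 difference divided by the square root of F. Single values per library were compared by 2-sided exact permutation tests of the difference of means (8 against 8, SciPy 1.17.1), where the smallest possible p is 0.000155, with adjustment over 15 values. A marker score is the mean over a list of log2 CPM with a prior count of 2.

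The members and gene lists were chosen with earlier results of these data known. The rule named the 12 lowest p-values in each direction at a mean log2 CPM of at least 2, the 4 lowest in each direction for each condition, the 3 lowest in the other contrasts, all clock genes, ribosomal loci, and in other lists the 2 lowest p-values and the most abundant gene. A gene among the 12 lower ones is counted but not reported here. Tecrl, Psme2b, Pnn, St8sia1 and further members of the lists were named after their values were seen. Replicates differed by more than counting noise (smallest chi-square per degree of freedom 9.39). The fits were also run on simulated counts that held no differences in cell content between libraries. Those runs do not show how the calls behave in these libraries.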

Additional observations from a re-analysis of the deposited data

Results flagged for a closer look

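Among 156 groups of 4 libraries examined over 39 measures, 13 had a library whose gap to the others exceeded the 95% critical value of Dixon's test, where chance gives about 7.8. The Cogn replicate 4 library had a total of 62.2 M against 17.4 to 20.1 M in the other Cogn libraries. The share of the ribosomal locus Gm23935 was 3.19% in Cogn replicate 4 against 0.208 to 0.525% in the others, 2.63% in Ctr0 replicate 4 against 0.0894 to 0.246%, and 2.82% in Ctr1 replicate 1 against 0.0998 to 0.392%.

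The Ctr0 replicate 3 library stood above the other Ctr0 libraries in 3 of the genes that passed, at 10.4 CPM of Map3k6 (others 5.74 to 6.50), 24.1 CPM of Mal (others 14.3 to 15.8) and 28.9 CPM of Parvb (others 23.2 to 23.5). Without it 21 genes passed in place of 6, all higher. Fkbp5 was low in Cogn replicate 3, at 81.0 CPM against 144 to 153. Npnt was high in Soci replicate 2, at 21.3 CPM against 16.4 to 17.2. Tanc2 was low in Soci replicate 1, at 444 CPM against 514 to 528.

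Cogn replicate 2 had a summed CPM of 16688 for the microglial markers against 12981 to 13571 in the other Cogn libraries, and of 217 for the oligodendrocyte markers against 175 to 181. Cogn replicate 3 had 15.4 for the ependymal markers against 6.92 to 7.38.

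Dbp was the gene whose day difference between Soci and Cogn and the controls (0.02 on the log2 scale) differed from the night difference (-1.03) by the direct test, with a gap of 1.04 and an adjusted p of 0.0192 in edgeR.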

How the results depend on the processing

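All 25 leading genes kept their sign under every alternative in which they were tested, while the calls did not. The count of 6 genes was 7 with size factors by the median of ratios, 16 with library totals alone, which raised the median of all genes by 0.15 on the log2 scale, 13 without a count filter, 3 at a mean of at least 1 CPM, 81 with DESeq2 (67 higher, 14 lower), 2 with the log2 total as a covariate, 50 with the share of Gm26917 (35 higher, 15 lower), 2 with the choroid plexus score, 0 with the haemoglobin score, 1 with 2 means, 0 against Ctr0 alone, 15 against Ctr1 alone and 1 with all 32 hippocampus libraries. It was 0 to 4 without a replicate number and 2 to 21 without a library, with 21 without Ctr0 replicate 3. The cause of these shifts was not tested.

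For Soci alone, the count of 1 was 8 with library totals alone, 2 without a filter, 3 with DESeq2, 7 with the share of Gm26917, and 0 with the log2 total, choroid plexus, endothelial and mural or haemoglobin covariate. It was 0 to 0 without a replicate number and 0 to 1 without a library. For Cogn alone, the count of 3 was 1 with library totals alone, 15 without a filter, 52 with DESeq2 (47 higher, 5 lower), 13 with the share of Gm26917, and 0 with the other 4 covariates. It was 0 to 3 without a replicate number and 0 to 22 without a library, with 22 without Ctr0 replicate 3 and 9 without Cogn replicate 1. For the gap between day and night, the count of 1 was 0 with library totals alone and with the endothelial and mural or haemoglobin score, 4 without a filter, 25 with DESeq2, 2 with the share of Gm26917, 0 to 0 without a replicate number and 0 to 4 without a library. The counts of 0 for Soci against Cogn, Ctr1 against Ctr0 and hippocampus against cortex were 0 under all 32 alternatives each.

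The correlations of deviations did not settle whether the replicate numbers pair the libraries. For same-numbered libraries they ran from -0.53 to 0.75, with a median of 0.02, and 9 of 24 pairs were over 0.1. For libraries of other numbers they ran from -0.62 to 0.62, with a median of -0.04, and 21 of 72 pairs were over 0.1. With the replicate block the main count was 4 and that of Cogn 1. The other counts of genes past the threshold were the same under the block. At an unadjusted p under 0.05 it gave 11 glucocorticoid-responsive genes in place of 10 and 7 endothelial and mural genes in place of 3.

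Among the marker sums, haemoglobin differed by 58.0 CPM, by 38.6 to 67.2 CPM without a replicate number and by 61.7 CPM with library totals alone, where its adjusted exact permutation p was 0.0268. Astrocytes (92.3 CPM, adjusted p = 0.0482) and oligodendrocytes (37.2 CPM, adjusted p = 0.0268) also passed there by the exact permutation test. Several differences changed sign. The microglial difference was -770 CPM with TMM scaling. With library totals alone the sums that changed sign were microglia (618), neutrophils and monocytes (1.85), lymphocytes (0.0339), neurons (13.3), oligodendrocyte precursors (0.969) and ependymal cells (0.356). Without a replicate number, border macrophages ran from -23.7 (-0.665 without replicate 2) to 54.9, neutrophils and monocytes from -4.37 to 3.25 (0.774 without replicate 2), lymphocytes from -0.519 to 0.476, neurons from -51.2 to 24.4, oligodendrocyte precursors from -3.39 to 0.923, ependymal cells from -1.43 to 0.460 (0.0232 without replicate 1), and the share of Gm23935 from -0.260 to 0.561 percentage points.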

Other observations

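The transcripts of the mitochondrial genome encode subunits of the respiratory chain, and of the 7 tested none passed in Soci, in Cogn or between them. For mt-Nd2 the log2 difference from the controls was -0.01 in Soci and 0.93 in Cogn, and for mt-Nd4 -0.01 and 0.77. The Cogn libraries ran from 133 to 575 CPM of mt-Nd2 and overlapped the controls, at 74.8 to 232 CPM. In the direct test of Soci against Cogn mt-Nd2 was at -0.94 ± 0.35 (SE, adjusted p = 0.744 in edgeR). The median of the 7 was -0.09 in Soci and 0.44 in Cogn. For Soci and Cogn together it was 0.17 in the day and -0.32 at night. The mitochondrial ribosomal RNA genes were higher in Soci and Cogn together at an unadjusted p under 0.05, mt-Rnr1 at 0.90 ± 0.29 (SE, adjusted p = 0.416) and mt-Rnr2 at 0.39 ± 0.17 (SE, adjusted p = 0.611). The loci that take up nuclear ribosomal RNA reads had the other sign, Gm42418 at -0.46 ± 0.22 (SE) and Gm26917 at -0.40 ± 0.25 (SE). The share of Gm26917 was 37.6 ± 4.90% in Soci and Cogn and 42.6 ± 8.47% in the controls (SD, n = 8 each, exact permutation p = 0.165, adjusted p = 0.494).

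Most genes of protein synthesis and respiration lay slightly above 0. At an unadjusted p under 0.05, 4.69% of all genes were higher. Of 31 cytosolic ribosomal protein genes, 27 were higher in sign and 4 at that level, led by Rpl11 (0.31 ± 0.11 SE), with a median of 0.07. Of 29 nuclear genes of the respiratory chain, 26 were higher in sign and 4 at that level, among them Ndufa4 (0.34 ± 0.14 SE), with a median of 0.07. None of these passed the adjusted threshold in edgeR. Taken apart, the median of the ribosomal protein genes was 0.01 in Soci and 0.13 in Cogn. For the respiratory chain genes it was 0.08 in Soci and 0.07 in Cogn.

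Single members of other lists stood apart from their lists. Cd59a, which protects cells from complement, had 2.697 to 5.83 CPM in Soci and Cogn and 1.23 to 3.28 CPM in the controls, a log2 difference of 0.69 ± 0.14 (SE, adjusted p = 0.115), while the 14 complement genes had a median of 0.02. H2-Q4, a class I histocompatibility gene that overlaps Gm11131, had 0.25 ± 0.09 (SE), while the 16 antigen presentation genes had a median of 0.00. In the cell cycle list Cdkn1a was at 0.71 and Mcm6, a subunit of the replicative helicase, at -0.23 ± 0.09 (SE), with a median of -0.06 over 24 genes. Among 12 clock kinases and ubiquitin ligases none had an unadjusted p under 0.05, and the most abundant, Csnk1e, was at 0.06 ± 0.05 (SE).

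Markers of border macrophages (10 genes, median 0.04), neurons (15 genes, median -0.07) and oligodendrocyte precursors (7 genes, median -0.09) had no gene at an unadjusted p under 0.05, nor did those of neutrophils and monocytes (5 tested, median 0.52), ependymal cells (4 tested, median -0.12) and lymphocytes, of which Cd4 alone was tested (-0.12 ± 0.27 SE).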
